A study of Mus musculus with 23 samples.

Results

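The major histocompatibility complex (MHC) class II genes and their regulator were followed through small intestine RNA of 23 mice. The 8 genes are H2-Aa, H2-Ab1, H2-Ea and H2-Eb1, which encode chains of the class II molecules, H2-DMa and H2-DMb1, which encode the peptide exchange factor H2-DM, Cd74, which encodes the invariant chain, and Ciita, which encodes the class II transactivator. They were chosen by symbol, through the NCBI Gene numbers of the expression table, from 17842 entries that carry such a number. All 8 were in the table. Of these, 7 had a mean of at least 1 FPKM (fragments per kilobase of transcript, scaled to the fragments mapped in the library) over the 23 libraries and entered the tests, and H2-Eb1 did not.

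Class II molecules are pairs of an alpha and a beta chain that show peptides from endosomes to CD4+ T cells. The invariant chain holds the groove of newly made pairs and guides them to endosomes, where cathepsins cut it down and H2-DM swaps its last fragment for a peptide. Ciita does not bind DNA itself but joins the RFX complex, CREB and NF-Y on class II promoters, and interferon gamma induces it in many cells. In the small intestine, class II is found on B cells, dendritic cells and macrophages, and also on epithelial cells, where it responds to interferon gamma and to the microbiota.

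All mice were ICR males, an outbred stock, given a dose of busulfan at 40 mg/kg at 3 weeks of age, a drug used in chemotherapy. They then received saline by gavage (Sa) or fecal microbiota transplantation (FMT), here small intestine contents pooled from the donors of a group. The donors were ICR males dosed with vehicle (Con-FMT) or with alginate oligosaccharide (AOS) at 10 mg/kg (A10-FMT) or at 100 mg/kg (A100-FMT) for 3 weeks. The sample codes divide the libraries into set 1 and set 2, with no explanation of the code in the sources used here. FMT for 1 week and an age of 5 weeks at sampling could be tied to set 1 only, and neither could be tied to set 2. Each of the 8 groups had 3 mice, apart from Sa of set 1 with 2, and each mouse gave 1 library. The sequencing depth is not known, since the values are FPKM, and the summed FPKM of a library ran from 556466 to 667957. As the contents were pooled, all mice of an FMT group shared an inoculum, so that the p-values measure the spread between recipients.

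Before any result, 1 library has to be set apart. In replicate 3 of Sa in set 1, the deviation of a gene from its median over the libraries followed the GC content of the gene, with a Spearman correlation of 0.690 across genes, against -0.221 to 0.220 in the other 22 libraries. Across genes it correlated at 0.944 to 0.965 with the rest, whereas the other 22 correlated at 0.968 to 0.991 with each other. Its title and its description name different columns of the table, and the column of the title was used. With the column that the description names, the correlation with GC content was -0.0867. As Sa of set 1 had only 2 libraries, counts that rest on it are also given without this library. A fit that leaves out either of them has 1 Sa library in set 1, which is assumed to vary like the libraries of the other groups.

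The promoters of H2-Aa, H2-Eb1 and H2-DMb1 are shown because they carry the short words of the class II promoter in different number. Sequences are from RefSeq on GRCm38.p6, 5′ to 3′ on the strand of the gene, from 250 bases before the start of the transcript to 50 after it. Capitals mark ATTGG or CCAAT, the core of the NF-Y box on either strand, and GCAAC or GTTGC, a word of the RFX box on either strand.
H2-Aa, chr17:34287774-34288073, minus strand: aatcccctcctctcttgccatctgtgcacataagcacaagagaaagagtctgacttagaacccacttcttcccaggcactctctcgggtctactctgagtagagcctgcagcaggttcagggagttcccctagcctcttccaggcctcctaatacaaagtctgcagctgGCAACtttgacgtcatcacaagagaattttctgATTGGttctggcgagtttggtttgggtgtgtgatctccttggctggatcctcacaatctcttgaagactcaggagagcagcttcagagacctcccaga
H2-Eb1, chr17:34305617-34305916, plus strand: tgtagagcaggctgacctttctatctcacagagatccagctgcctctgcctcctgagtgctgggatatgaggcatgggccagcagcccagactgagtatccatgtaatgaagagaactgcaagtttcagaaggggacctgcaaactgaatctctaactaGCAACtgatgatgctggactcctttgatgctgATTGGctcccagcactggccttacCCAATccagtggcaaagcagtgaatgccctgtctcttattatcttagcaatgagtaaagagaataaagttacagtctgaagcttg
H2-DMb1, chr17:34152941-34153240, plus strand: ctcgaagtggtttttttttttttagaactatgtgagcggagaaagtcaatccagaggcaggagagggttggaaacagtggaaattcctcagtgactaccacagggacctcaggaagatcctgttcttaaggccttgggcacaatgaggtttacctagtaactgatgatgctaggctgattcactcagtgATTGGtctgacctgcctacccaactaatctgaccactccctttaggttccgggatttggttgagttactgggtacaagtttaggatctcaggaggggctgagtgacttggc
H2-Aa had GCAAC 81 bases and ATTGG 48 bases before the start. In H2-Eb1 the same words lay 91 and 59 bases before it, and CCAAT followed at 35 bases. H2-DMb1 had ATTGG 61 bases before the start and neither GCAAC nor GTTGC in this window. It had GTAAC, which differs from GCAAC in 1 base, between 30 and 36 bases before that ATTGG. Only exact words were searched, so their absence cannot decide whether H2-DMb1 lacks an RFX box. Of 32851 such windows of the genome, 37.4% held CCAAT or ATTGG, 35.2% held GCAAC or GTTGC and 13.7% held both. The order of H2-Aa and H2-Eb1, with GCAAC 30 to 36 bases before ATTGG, was found in 0.17% of the windows (56), a criterion set after these promoters were seen. RefSeq windows matched 4 of the 8 genes, and both windows of H2-DMa, at chr17:34122582-34122881 and chr17:34125268-34125567, held 1 word each, GTTGC in the former and ATTGG in the latter.

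The tissue carried an epithelial profile with few transcripts of professional antigen presenting cells. Krt8 and Krt19, keratins of simple epithelia, and the lectin Lgals4 had means of 2533, 2385 and 2276 FPKM, and the adhesion molecule Epcam and the microvillus protein Vil1 had 968 and 694 FPKM. All 17 epithelial markers passed the filter, and their sum ran from 12563 to 17140 FPKM over the libraries with a median of 13905. Of 16 B cell markers, 1 passed the filter, Cd79b with 1.33 FPKM, followed by Cd37 (0.761 FPKM) and Spib (0.48 FPKM), and the sum of all 16 stayed between 2.18 and 3.77 FPKM. The B cell factor Pax5 was listed at 0 in 22 of the 23 libraries. Among 14 dendritic cell markers, the sum without Irf8 stayed between 0.21 and 0.66 FPKM, with Itgax at 0.16 FPKM, Zbtb46 at 0.098 FPKM and Flt3 at 0 in 14 libraries. Irf8, which is not restricted to dendritic cells, had 101 FPKM. Of 15 macrophage markers, Cd14 (59.2 FPKM) and Mertk (13.5 FPKM) passed the filter, Lyz2 had 0.795 FPKM, Adgre1 was at 0 in 17 libraries and Csf1r had 0.026 FPKM.

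Markers of other immune cells were low as well, with exceptions that other cells also express. The 10 T cell markers in the table, led by Cd3g, Cd8a and Cd3e with 4.09, 2.47 and 1.5 FPKM, summed to 5.12 to 30.5 FPKM with a median of 8.66. The 10 pan-leukocyte markers, led by the actin bundler Lcp1 with 6.48 FPKM and by Cd52 and Coro1a, both with 3.09 FPKM, summed to 11.1 to 47.1 FPKM with a median of 16.7. In both lists replicate 3 of Con-FMT in set 2 was the highest library. Id2 and Kit, among the markers of group 3 innate lymphoid cells, had 8.21 and 2.57 FPKM. Xbp1, Sdc1 and Prdm1, the first of the plasma cell markers, had 93.6, 44.3 and 1.27 FPKM. Mfge8, Bcl6 and Ccl20, the first of the Peyer patch markers, had 16.6, 2.94 and 0.817 FPKM. In RNA of whole tissue, fewer cells of a type and less RNA per cell cannot be told apart.

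Markers of Paneth cells and of absorptive enterocytes were high and differed between libraries, whereas most markers of muscle and stroma were near 0. Paneth cell markers (Defa24 5227, Defa17 3272 and Lyz1 2822 FPKM) summed to 6739 to 21113 FPKM, and markers of absorptive enterocytes (Apoa1 2341, Rbp2 1676 and Anpep 1573 FPKM) to 6117 to 17904 FPKM. Proximal markers (Fabp1 1152, Apoa4 978 and S100g 97.2 FPKM) summed to 1242 to 4443 FPKM and distal markers (Fabp6 779.6, Guca2a 465 and Muc3 315 FPKM) to 1311 to 2622 FPKM. Smooth muscle (Mylk 66.9, Smtn 7.66 and Tagln 1.24 FPKM), stromal and endothelial (Lyve1 2.72, Dcn 0.122 and Pecam1 0.104 FPKM) and erythroid markers (Hba-a1 5.02, Hbb-bs 0.473 and Hbb-bt 0.081 FPKM) were lower. Of the 9 smooth muscle markers in the table, 6 had means under 0.1 FPKM, among them Acta2 (0.033) and Myh11 (0.011). Of the 10 stromal and endothelial markers, 7 did, among them Col1a1 (0.043) and Pdgfra (0.00087). Against Sa of set 1, 12 of 16 enterocyte markers were higher in A10-FMT, 6 in A100-FMT and 2 in Con-FMT, and 0 were lower (limma), where 13.6%, 22.0% and 17.7% of all genes were higher. These counts were 6, 0 and 0 without replicate 3 of Sa in set 1. Of 9 Paneth cell markers 6 were lower in A100-FMT vs. Sa of set 1 (13.1% of all genes), and 0 without that library, and 3 were higher in A10-FMT vs. Sa of set 2 (0.0882% of all genes). The part of these markers in the results below was not tested. Among markers of B cells, dendritic cells, macrophages, T cells and all leukocytes, 0 passed in each of the 6 comparisons with Sa within a set (limma).

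The 8 genes differed widely in level, which FPKM gives per length of transcript. Cd74 on chromosome 18 (60803849-60812652, GRCm38 here and below) had a mean of 584.9 FPKM and was the highest of the 8 in 23 of 23 libraries. The alpha and beta chains of the A molecule, H2-Aa (chromosome 17, 34282744-34287823) and H2-Ab1 (chromosome 17, 34263227-34269418), followed with means of 86.9 and 87.0 FPKM. H2-Aa exceeded H2-Ab1 in 13 of 23 libraries, with ratios from 0.732 to 1.19, so that neither was the higher chain throughout. H2-Ea (chromosome 17, 34341952-34344645) had a mean of 30.1 FPKM and was below H2-Aa in 22 of 23 libraries. H2-Ea encodes the alpha chain of the E molecule, is annotated as a transcribed pseudogene on GRCm38, and lacks its promoter in the b haplotype of C57BL/6, from which the reference was made. The alleles of these ICR mice were not analysed here.

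The remaining genes were lower. H2-DMb1 (chromosome 17, 34153191-34160229), the beta chain of H2-DM, had a mean of 10.4 FPKM and exceeded its partner H2-DMa in 18 of 23 libraries. Ciita (chromosome 16, 10480014-10531064) had a mean of 4.57 FPKM, below H2-DMb1 in 16 libraries and above H2-DMa in 22. H2-DMa (chromosome 17, 34119693-34139101) had a mean of 1.74 FPKM, from 0.39 to 7.26. H2-Eb1 (chromosome 17, 34305867-34316674), the beta chain that pairs with H2-Ea, was the lowest of the 8 in every library, with a mean of 0.212 FPKM, a highest value of 0.55 and 2 libraries listed at 0. H2-DMb1 has a close copy, H2-DMb2 with 0.329 FPKM, and how the counting shared reads between them is not given in the sources used here. The other class II genes H2-Oa, H2-Ob and H2-Eb2 had means of 0.257, 0.033 and 0.011 FPKM, and none of these 4 entered the tests.

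**Figure D1:**
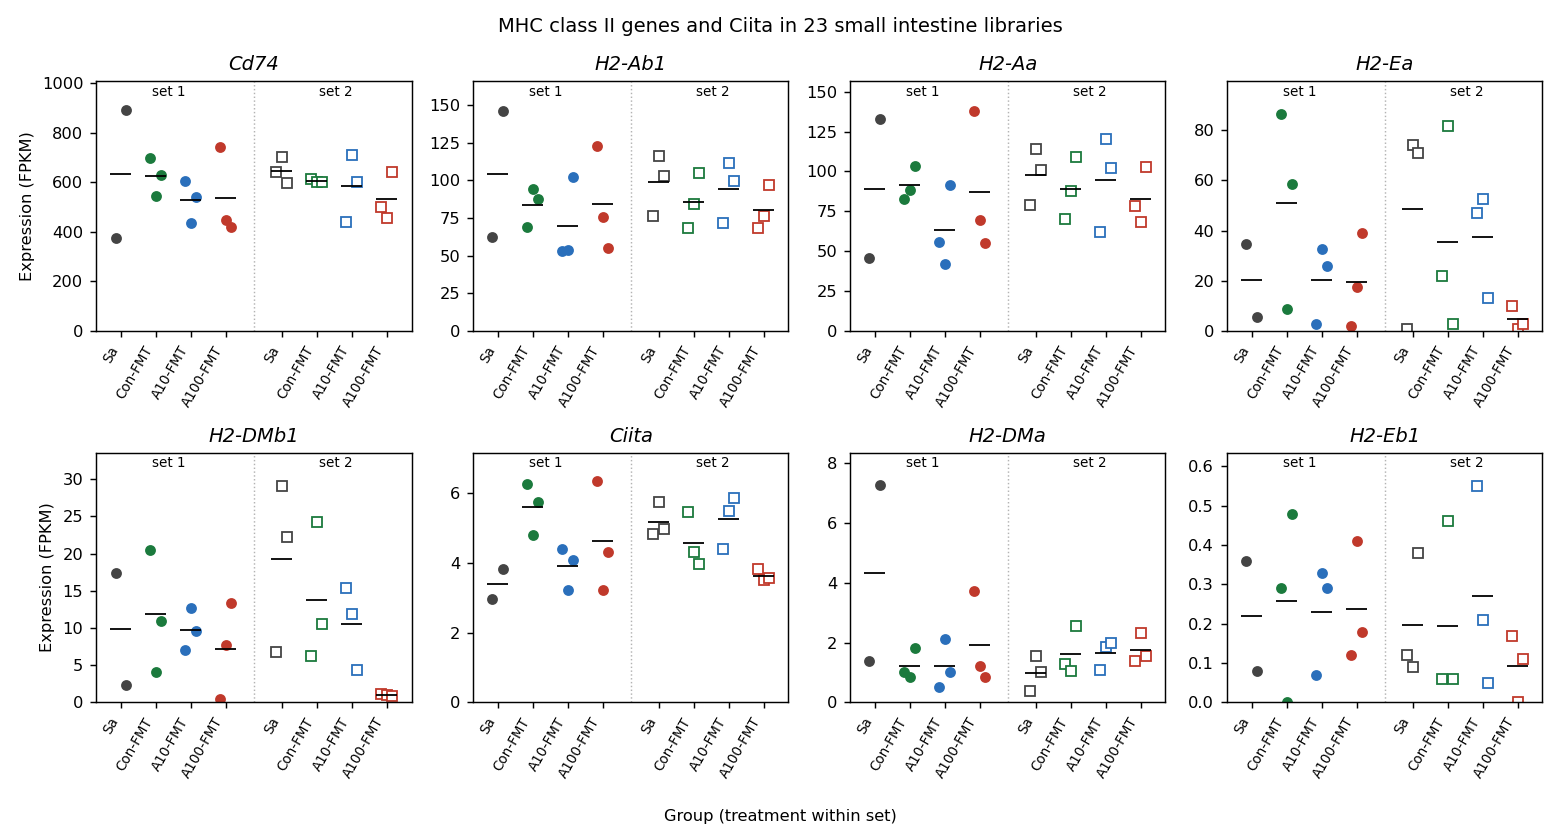
FPKM of the 8 genes in each of the 23 libraries (1 panel per gene, vertical axis in FPKM, horizontal axis the treatment), with filled circles for set 1, open squares for set 2 and a black line at the mean of a group. Cd74 and H2-Aa overlap between the treatments of a set, whereas H2-Ea and H2-DMb1 range from near 1 FPKM to 86.3 and 29.1 FPKM within and between groups, and A100-FMT of set 2 lies at 0.85 to 1.09 FPKM for H2-DMb1.

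Cd74, which outnumbers the chains it chaperones, varied little between groups. In set 1 its values were 376.78 and 891.82 FPKM in Sa, 698.96, 545.63 and 631.53 in Con-FMT, 604.92, 437.41 and 543.03 in A10-FMT, and 742.38, 449.76 and 418.31 in A100-FMT. In set 2 they were 640.61, 701.90 and 597.65 FPKM in Sa, 614.90, 601.68 and 601.95 in Con-FMT, 441.97, 711.98 and 603.36 in A10-FMT, and 498.66, 454.91 and 643.57 in A100-FMT. Both the lowest and the highest library of all 23 were the pair of Sa libraries of set 1, and every group overlapped with every FMT and Sa group it was compared with. Group means ran from 528 ± 84.7 FPKM (SD, n = 3) in A10-FMT of set 1 to 647 ± 52.4 (SD, n = 3) in Sa of set 2.

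H2-Aa had the same lack of separation. In set 1 it was at 45.66 and 132.72 FPKM in Sa, 82.84, 88.47 and 103.49 in Con-FMT, 55.46, 42.22 and 91.59 in A10-FMT, and 137.62, 69.25 and 54.93 in A100-FMT. In set 2 it was at 79.19, 113.89 and 100.97 FPKM in Sa, 70.02, 87.82 and 108.79 in Con-FMT, 62.12, 120.20 and 101.90 in A10-FMT, and 78.10, 68.02 and 102.63 in A100-FMT. A10-FMT of set 1 had the lowest mean, 63.1 ± 25.6 FPKM (SD, n = 3), and Sa of set 2 the highest, 98.0 ± 17.5 (SD, n = 3), with overlapping libraries. For H2-Ab1 the lowest and highest group means were 69.7 ± 28.0 FPKM (SD, n = 3) in A10-FMT and 104 ± 59.4 (SD, n = 2) in Sa, both of set 1. Its libraries ranged from 53.18 FPKM (A10-FMT of set 1, replicate 1) through a median of 84.4 to 146.29 (Sa of set 1, replicate 3).

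H2-Ea differed most between mice of the same group. In set 1 its values were 34.80 and 5.48 FPKM in Sa, 86.30, 8.78 and 58.41 in Con-FMT, 2.60, 32.63 and 25.88 in A10-FMT, and 1.89, 17.59 and 38.90 in A100-FMT. In set 2 they were 0.76, 74.01 and 71.01 FPKM in Sa, 22.06, 81.60 and 2.95 in Con-FMT, 46.95, 52.66 and 13.26 in A10-FMT, and 10.06, 0.95 and 2.73 in A100-FMT. Every group except A100-FMT of set 2 had at least 1 library above 30 FPKM, and every group except A10-FMT of set 2 had at least 1 below 11. Within a group the highest library was 3.97 times the lowest in A10-FMT of set 2 and 97.4 times in Sa of set 2. Over all libraries the range was 113.6-fold.

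H2-DMb1 varied in a similar way. In set 1 it was at 17.34 and 2.32 FPKM in Sa, 20.51, 4.05 and 10.99 in Con-FMT, 7.03, 12.76 and 9.62 in A10-FMT, and 0.45, 7.76 and 13.42 in A100-FMT. In set 2 it was at 6.73, 29.11 and 22.21 FPKM in Sa, 6.26, 24.32 and 10.58 in Con-FMT, 15.45, 11.86 and 4.31 in A10-FMT, and 1.09, 1.03 and 0.85 in A100-FMT. The 3 libraries of A100-FMT in set 2 lay below all other libraries but 1, replicate 1 of A100-FMT in set 1. The mean of that group was 0.990 ± 0.125 FPKM (SD, n = 3), against 19.4 ± 11.5 (SD, n = 3) in Sa of set 2. H2-DMa, the partner chain, did not show this order. In set 2 its values were 0.39, 1.54 and 1.03 FPKM in Sa, 1.29, 1.05 and 2.55 in Con-FMT, 1.1, 1.86 and 2.0 in A10-FMT, and 1.38, 2.33 and 1.55 in A100-FMT. In set 1 they were 1.40 and 7.26 FPKM in Sa, 1.03, 0.86 and 1.82 in Con-FMT, 0.53, 2.14 and 1.02 in A10-FMT, and 3.72, 1.23 and 0.84 in A100-FMT. Its highest value belonged to the Sa library of set 1 that stood apart.

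Ciita had the narrowest range of the 8 genes, 2.13-fold. In set 1 it was at 2.98 and 3.83 FPKM in Sa, 6.28, 4.79 and 5.74 in Con-FMT, 4.40, 3.24 and 4.10 in A10-FMT, and 6.35, 3.23 and 4.33 in A100-FMT. In set 2 it was at 4.83, 5.74 and 4.97 FPKM in Sa, 5.45, 4.31 and 3.97 in Con-FMT, 4.41, 5.48 and 5.86 in A10-FMT, and 3.84, 3.51 and 3.57 in A100-FMT. In order of their means, the groups were Con-FMT of set 1 (5.60 ± 0.754 FPKM, SD, n = 3), A10-FMT and Sa of set 2 (5.25 and 5.18), A100-FMT of set 1 (4.64), Con-FMT of set 2 (4.58), A10-FMT of set 1 (3.91), A100-FMT of set 2 (3.64 ± 0.176, SD, n = 3) and Sa of set 1 (3.41 ± 0.601, SD, n = 2). Neighbours in this order all overlapped in their libraries, and the treatments did not keep their order between the sets.

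The first question was whether FMT changed these genes relative to saline. Differences were tested with limma on log2(FPKM + 1) over all groups and adjusted over 11337 genes with the Benjamini-Hochberg method, with a threshold of 0.05, and all fold changes are on that scale, which understates changes of low genes. In Con-FMT vs. Sa of set 1, 1 of the 7 genes passed, Ciita, in a comparison in which 26.9% of all genes tested passed. Ciita was higher in Con-FMT by 0.58 ± 0.18 on the log2 scale (SE, limma adjusted p = 0.031), 1.65 times in the group means, and higher in 3 of 3 libraries than in either Sa library. The groups did not overlap for this gene only, and 18.8% of all genes did not overlap in that direction. Over 32 alternative settings its difference ran from 0.39 to 0.72, and it passed in 22 of them, with adjusted p from 0.022 to 0.85. It was lost when replicate 1 of Sa was left out (0.44, adjusted p = 0.10), as well as replicate 3 of Sa (0.72, adjusted p = 0.61), replicate 1 of Con-FMT (0.51, adjusted p = 0.084) or replicate 3 of Con-FMT (0.57, adjusted p = 0.080). It was also lost with the description's column (0.39, adjusted p = 0.46) and with the 2 groups fitted alone (adjusted p = 0.45).

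The other 2 comparisons with Sa in set 1 gave no call. In A10-FMT vs. Sa, 0 of the 7 genes passed (limma), with 1 at an unadjusted p under 0.05, while 32.0% of all genes passed. In A100-FMT vs. Sa the numbers were 0 passing and 0 at an unadjusted p under 0.05, while 35.2% of all genes passed. Of all genes, 5059 in A10-FMT vs. Sa and 5475 in A100-FMT vs. Sa had an unadjusted p under 0.05. H2-DMa had differences from Sa of -1.02 ± 0.46 for Con-FMT (SE, limma adjusted p = 0.096), -1.06 ± 0.46 for A10-FMT (adjusted p = 0.081) and -0.73 ± 0.46 for A100-FMT (adjusted p = 0.21). These values rest on replicate 3 of Sa with 7.26 FPKM. Without it the differences were -0.13, -0.17 and 0.16. When the other Sa library was left out instead, so that the library that stands apart was the only one of its group and the spread came from the other groups alone, 4 of 7 genes passed as lower in A10-FMT (Cd74, H2-Aa, H2-Ab1 and H2-DMa), where 60.8% of all genes passed, 2 in A100-FMT (Cd74 and H2-DMa), where 62.3% passed, and 1 in Con-FMT (H2-DMa), where 60.6% passed.

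In set 2, FMT gave no call among the 7 genes either. In Con-FMT vs. Sa the count was 0 of 7, also at an unadjusted p under 0.05 (limma). Of all genes, 0.0353% passed and 651 had an unadjusted p under 0.05. In A10-FMT vs. Sa the numbers were 0 and 0, beside 0.423% of all genes passing and 1627 at an unadjusted p under 0.05. In A100-FMT vs. Sa 0 of 7 passed, with 0.0353% of all genes passing. At an unadjusted p under 0.05 there were 2, H2-DMb1 and Ciita, beside 1606 of all genes. For these 2 genes the libraries of A100-FMT lay below all 3 of Sa, while 10.1% of all genes did not overlap in that direction and 18.4% in the other.

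H2-DMb1 had the widest difference of the 7 genes in that comparison. It differed by -3.14 ± 0.80 on the log2 scale in A100-FMT (SE, 95% interval -4.82 to -1.47), lower in 3 of 3 libraries, with an unadjusted p of 0.000965 and an adjusted p of 0.12 (limma). Over 33 alternatives the adjusted p ran from 0.0082 to 0.39 and passed in 4 of them, which were array quality weights (0.0082), the description's column (0.027), and the fits without replicate 1 (0.029) and without replicate 3 of Sa in set 1 (0.029). The last 3 of these leave the 6 libraries compared as they were. Of all genes, 12.8% passed with the weights and 4.94% with the description's column, against 0.0353% in the main fit. Ciita differed by -0.41 ± 0.16 (SE, limma adjusted p = 0.26), also lower in 3 of 3 libraries. H2-Ea differed by -2.29 ± 1.46 (SE, limma adjusted p = 0.51), and replicate 1 of Sa, with 0.76 FPKM, was below all libraries of A100-FMT. H2-Aa (-0.24 ± 0.38), H2-Ab1 (-0.28 ± 0.32) and Cd74 (-0.29 ± 0.26) had intervals that included 0.

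With both sets averaged, 0 of 7 genes passed in Con-FMT vs. Sa (0.75% of all genes passing), 0 of 7 in A10-FMT vs. Sa (0.132%) and 0 of 7 in A100-FMT vs. Sa (0.891%) by limma. At an unadjusted p under 0.05 the counts were 0, 0 and 1, beside 2659, 2260 and 2987 of all genes. The 1 gene was H2-DMb1, with a difference of -1.80 ± 0.60 (SE, limma adjusted p = 0.10, and 0.049 with the description's column, where 0.591% of all genes passed). Cd74 depended on the Sa libraries of set 1 in this comparison. Its difference was -0.23 ± 0.19 in A100-FMT (SE, limma adjusted p = 0.45), -0.54 without replicate 1 of Sa in set 1 (adjusted p = 0.016, with 50.7% of all genes passing), and 0.08 without replicate 3 (adjusted p = 0.92).

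**Figure D2:**
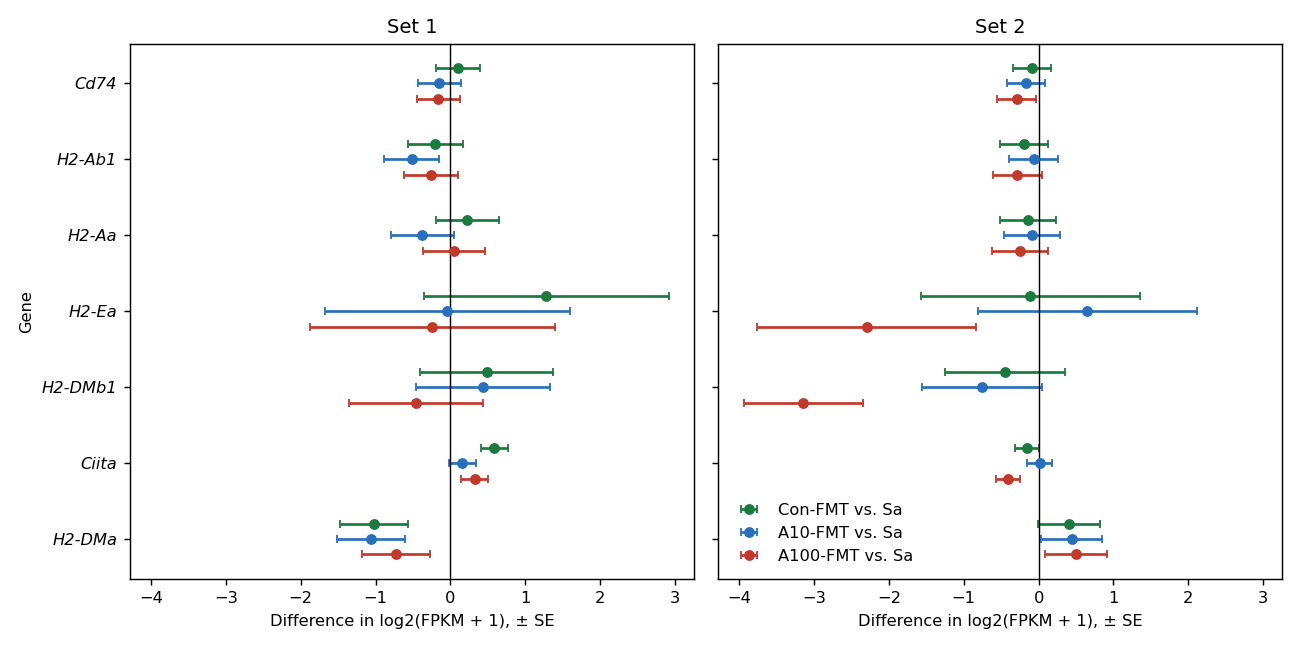
Log2 difference of FPKM + 1 between each FMT group and Sa for the 7 genes tested (points, with bars of 1 SE from limma), separately for set 1 and set 2. Ciita in Con-FMT vs. Sa of set 1 (0.58) was the only difference past the threshold, and H2-DMb1 in A100-FMT vs. Sa of set 2 (-3.14) lies farthest from 0.

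The second question was whether contents of AOS-dosed donors acted differently from contents of vehicle-dosed donors. In A10-FMT vs. Con-FMT of set 1, 0 of 7 genes passed (limma), with 16.7% of all genes passing. Beside 3605 of all genes, 1 of the 7 had an unadjusted p under 0.05. This was Ciita, with a difference of -0.43 ± 0.16 (SE, limma adjusted p = 0.078) and lower in 3 of 3 libraries, where 29.8% of all genes lay without overlap in that direction. In A100-FMT vs. Con-FMT of set 1 the counts were 0 and 0, with 0.406% of all genes passing and 1282 at an unadjusted p under 0.05. In set 2 they were 0 and 0 for A10-FMT (0.379% of all genes, 1348 at an unadjusted p under 0.05) and 0 and 1 for A100-FMT (0.0% and 1270). The 1 gene was H2-DMb1, with a difference of -2.69 ± 0.80 (SE, limma adjusted p = 0.21), and for H2-DMb1 and Ciita the libraries of A100-FMT lay below all of Con-FMT, as did 6.49% of all genes. Averaged over both sets, 0 of 7 passed for A10-FMT (0.0% of all genes) and 0 of 7 for A100-FMT (0.123%) by limma. At an unadjusted p under 0.05 there were 0 and 2, beside 697 and 1097 of all genes. Between the doses, 0 of 7 genes passed in A100-FMT vs. A10-FMT of set 1 (5.66% of all genes), of set 2 (0.00882%) and over both sets (0.132%) by limma. At an unadjusted p under 0.05 there were 0, 2 and 1, beside 2624, 808 and 1159 of all genes. In set 2 the A100-FMT libraries lay below all of A10-FMT for H2-Ea (-2.94 ± 1.46, SE, limma adjusted p = 0.72), H2-DMb1 (-2.39 ± 0.80, adjusted p = 0.49) and Ciita (-0.42 ± 0.16, adjusted p = 0.58), as did 7.16% of all genes. The FMT comparisons share libraries of a set and are not independent of each other.

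The third question was whether the sets differed. In A100-FMT vs. Sa, 1 of 7 genes passed the test of the difference between the sets, with 26.8% of all genes passing. Ciita differed by -0.74 ± 0.24 (SE, limma adjusted p = 0.035), from a difference of 0.33 in set 1 (adjusted p = 0.16) to -0.41 in set 2 (adjusted p = 0.26). The call was lost in 13 of 32 alternatives, among them the fits without replicate 1 (-0.60) and replicate 3 (-0.88) of Sa in set 1, replicate 1 (-0.53) and replicate 3 (-0.76) of A100-FMT in set 1, replicate 2 (-0.67) and replicate 3 (-0.76) of Sa in set 2, and replicate 2 (-0.72) and replicate 3 (-0.73) of A100-FMT in set 2. For Con-FMT vs. Sa the same test passed in 0 of 7 genes (0.00882% of all genes). There, 2 of the 7 had an unadjusted p under 0.05, beside 3893 of all genes. For A10-FMT vs. Sa the test passed in 0 of 7 (28.4%), and 1 had an unadjusted p under 0.05, beside 4684 (limma). Between FMT groups it passed in 0 of 7 for A10-FMT vs. Con-FMT (20.8%) with 1, for A100-FMT vs. Con-FMT (0.0%) with 0 and for A100-FMT vs. A10-FMT (3.5%) with 1. In that order, 3928, 1483 and 2126 of all genes had an unadjusted p under 0.05. In both comparisons with 1 gene it was Ciita. In A10-FMT vs. Con-FMT it differed between the sets by 0.59 ± 0.23 (SE, limma adjusted p = 0.074), from -0.43 in set 1 to 0.17 in set 2, and the adjusted p was 0.045 with a replicate block, 0.037 with the groups alone, 0.036 with array quality weights and 0.0497 without replicate 1 and 0.0498 without replicate 3 of Sa in set 1. It also passed without replicate 1 or 2 of A100-FMT in set 1, or without replicate 1 of Con-FMT in set 2. Of all genes, 19.8% passed with the block, 32.0% with the groups alone and 39.7% with the weights.

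Between the sets, 2 of 7 genes passed in Sa (38.1% of all genes), and 0 passed in Con-FMT (0.00882%), A10-FMT (30.4%) or A100-FMT (0.0%) by limma. The counts at an unadjusted p under 0.05 were 2, 0, 1 and 0 in that order, beside 5569, 674, 4778 and 1641 of all genes. In Sa, Ciita was higher in set 2 by 0.49 ± 0.18 (SE, limma adjusted p = 0.041), and the call was lost without any 1 of the 5 Sa libraries, with differences of 0.35 without replicate 1 and 0.63 without replicate 3 of set 1, and of 0.53, 0.43 and 0.52 without replicates 1, 2 and 3 of set 2. H2-DMa was lower in set 2, by -1.21 ± 0.46 on the log2 scale (SE, limma adjusted p = 0.045). It passed in 10 of 32 alternatives, and without replicate 3 of Sa in set 1 the difference was -0.32 (adjusted p = 0.81).

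What set most of these genes, but not Ciita or Cd74, past the 95th percentile of all genes was the spread between mice of the same group. The values include replicate 3 of Sa in set 1 and are not given without it. For H2-DMa the 2 libraries of that group were at 1.40 and 7.26 FPKM. The within-group SD of log2(FPKM + 1) had a median of 0.125 over the 11337 genes tested and a 95th percentile of 0.363. H2-Ea had an SD of 1.95, with 12 genes above it, and H2-DMb1 of 1.06, with 100 above it. H2-DMa (0.54), H2-Aa (0.50) and H2-Ab1 (0.43) were also past the 95th percentile, with 293, 334 and 409 genes above them. With a pseudocount of 0.1, H2-Ab1 was no longer past it (94.3rd percentile) and H2-Aa was at the 95.4th. Cd74, at 0.34, lay at the 94.5th percentile and Ciita, at 0.21, at the 83.4th. On this scale, low values are compressed by the added 1, and H2-DMa is the lowest of the genes tested.

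**Figure D3:**
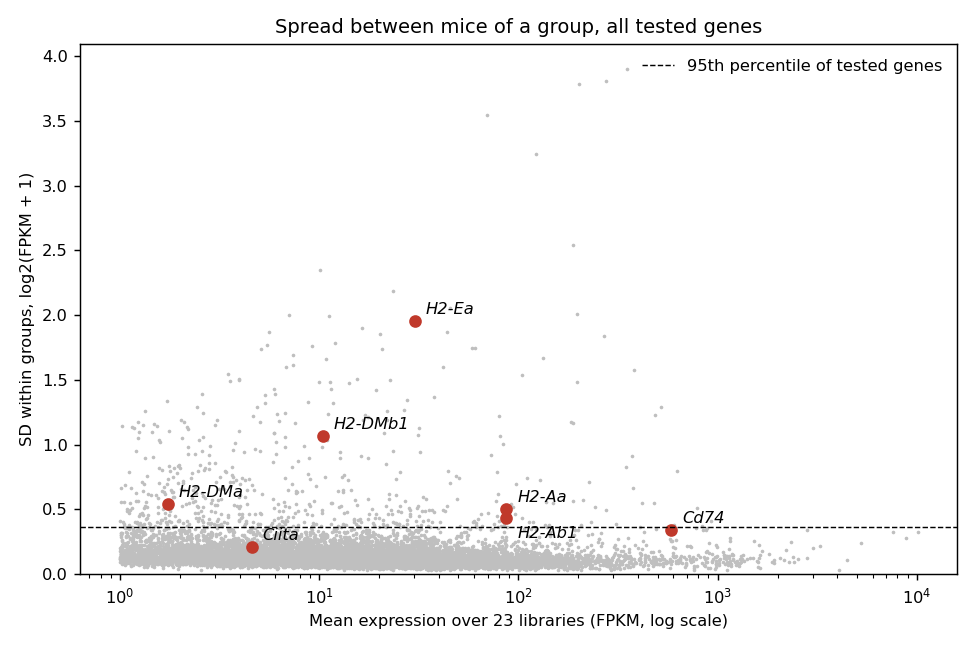
Within-group SD of log2(FPKM + 1) of each gene tested (grey points) against its mean level (horizontal axis, log scale, FPKM), with the 7 class II genes marked and a dashed line at the 95th percentile of all genes (0.363). H2-Ea (1.95) and H2-DMb1 (1.06) lie far above the line and Ciita (0.21) below it.

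The genes did not vary together as 1 unit. Over the 23 libraries, 28 pairs of the 8 genes were compared on the log2(FPKM + 1) scale, and 9 had an adjusted permutation p under 0.05. A first block joined the A chains with the invariant chain. H2-Aa and H2-Ab1 had a Pearson r of 0.93 (Spearman rho 0.94, permutation p = 1e-05, the smallest that 100000 resamples give, adjusted p = 9.33e-05). Without the 2 libraries farthest from the median the r was 0.94, and it was 0.92 within set 1 and 0.94 within set 2. H2-Aa and Cd74 had an r of 0.83 (rho 0.79, permutation p = 1e-05, adjusted p = 9.33e-05), 0.77 without the 2 farthest libraries, 0.84 within set 1 and 0.79 within set 2.

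Ciita, the transactivator of these genes, followed Cd74 more loosely. Their r was 0.61 (rho 0.60, permutation p = 0.00221, adjusted p = 0.00884), 0.73 without the 2 farthest libraries, 0.63 within set 1 and 0.56 within set 2. For Ciita and H2-Aa the r was 0.54 (rho 0.48, permutation p = 0.0078, adjusted p = 0.0243), 0.62 within set 1 and 0.34 within set 2. It fell to 0.34 without the 2 libraries farthest from the median of H2-Aa, so that the relation depends in part on them. Without replicate 3 of Sa in set 1 it was 0.63. Ciita and H2-Ab1 had an r of 0.34 (adjusted permutation p = 0.25).

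A second block joined H2-Ea, H2-DMb1 and H2-Eb1. H2-Ea and H2-DMb1 had an r of 0.78 (rho 0.86, permutation p = 1e-05, adjusted p = 9.33e-05), 0.81 without the 2 farthest libraries, 0.86 within set 1 and 0.74 within set 2. H2-Ea and H2-Eb1, the chains of the E molecule, had an r of 0.67 (rho 0.64, adjusted permutation p = 0.00297), with H2-Eb1 near the bottom of the range. Between the blocks, H2-Aa and H2-Ea had an r of -0.11 (permutation p = 0.623), -0.36 within set 1 and 0.22 within set 2. Pairs with H2-DMb1 turned sign between the sets as well. Within set 1 and set 2 the r was -0.70 and 0.29 for H2-Aa, -0.73 and 0.41 for H2-Ab1, and -0.59 and 0.35 for Cd74. Over all 23 libraries these were -0.25, -0.21 and -0.16, with adjusted permutation p of 0.445, 0.459 and 0.578. The r within a set was not tested. The H2-DM partners H2-DMa and H2-DMb1 had an r of -0.42 (adjusted permutation p = 0.116). Replicate 1 of A100-FMT in set 1, with 1.89 FPKM of H2-Ea and 0.45 of H2-DMb1, had the highest H2-Aa of all libraries, 137.62 FPKM.

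**Figure D4:**
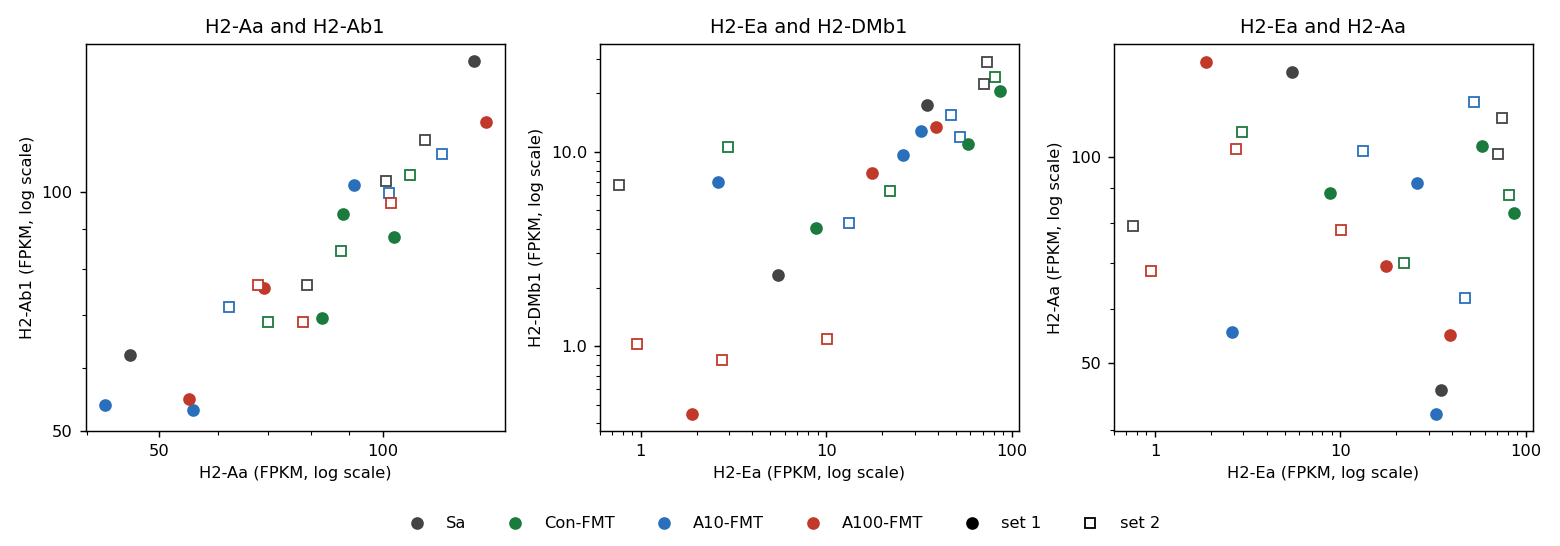
FPKM of 3 gene pairs over the 23 libraries on log axes, with filled circles for set 1 and open squares for set 2. H2-Aa and H2-Ab1 lie on 1 line (r = 0.93), H2-Ea and H2-DMb1 rise together (r = 0.78), and H2-Ea and H2-Aa show no line (r = -0.11).

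Likeness was measured, among tested genes with a name, as the correlation with the mean of the 7 tested genes, each centred but not scaled, over the 23 libraries. H2-Ea and H2-DMb1, with the widest spread, weigh most in that mean. The first 10 were Psmb9 (r = 0.81), an immunoproteasome subunit, Rps28 (0.79), a protein of the small ribosomal subunit, Cyp4f17 (0.69), Igsf3 (0.64), Tap1 (0.63), a chain of the peptide transporter of class I loading, Sphk1 (0.61), Vps52 (0.60), Trappc10 (0.59), Snx29 (0.59) and Rab11b (0.59). With the group means subtracted, the first 10 were Psmb9 (0.80), Max (0.75), Rps28 (0.74), Apoh (0.73), Lxn (0.72), Glod5 (0.71), Cyp4f17 (0.71), Cd59a (0.68), 2700062C07Rik (0.68) and Cpt2 (0.67). Psmb9, Tap1, Rps28, Cyp4f17, Vps52 and Rab11b lie on chromosome 17, as do all class II genes described here except Cd74 and Ciita. Psmb9 had an r of 0.91 with H2-Ea and of -0.07 with H2-Aa. With each gene scaled to its SD before the mean, a choice made after the values were seen, the first 3 were Trappc10 (0.75), Plekhm2 (0.68) and Notch4 (0.67), and Psmb9 was not among the first 10.

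For single genes, likeness was examined after the values were seen. Of the 10 named genes most like H2-Ea, 7 were on chromosome 17, and the same number held for H2-DMb1. Of all tested genes with a name, 5.25% were on it. For Cd74 the number was 4, for H2-Ab1 3, for H2-DMa 2, for Ciita 2 and for H2-Aa 1. Without replicate 3 of Sa in set 1 the number was 2 for Cd74 and 2 for H2-Aa, and the same as before for the other 5 genes. These rankings leave out 696 entries without a gene name (BGI_novel). Among them, BGI_novel_G000138 had an r of 0.99 with H2-Ea and of 0.78 with H2-DMb1. BGI_novel_G000396 had an r of 0.94 with H2-Aa and of 0.95 with H2-Ab1. Within 2 Mb of H2-Ea, 6 of 115 tested genes with a name had an r of at least 0.7 with it in either direction. Elsewhere on chromosome 17 it was 0 of 441, and on other chromosomes 0 of 10053. Within 2 Mb of H2-DMb1 the numbers were 7 of 115, 0 of 441 and 4 of 10053, the last all negative. For H2-Aa they were 1 of 117, 0 of 439 and 1 of 10053, and for H2-Ab1 2 of 117, 0 of 439 and 7 of 10053. The 6 genes near H2-Ea were Rps28 (r = 0.93), Psmb9 (0.91), Vps52 (0.79), Rab11b (0.79), H2-DMb1 (0.78) and Cyp4f17 (0.78). These are correlations over the same 23 libraries and share their depth and batches.

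**Figure D5:**
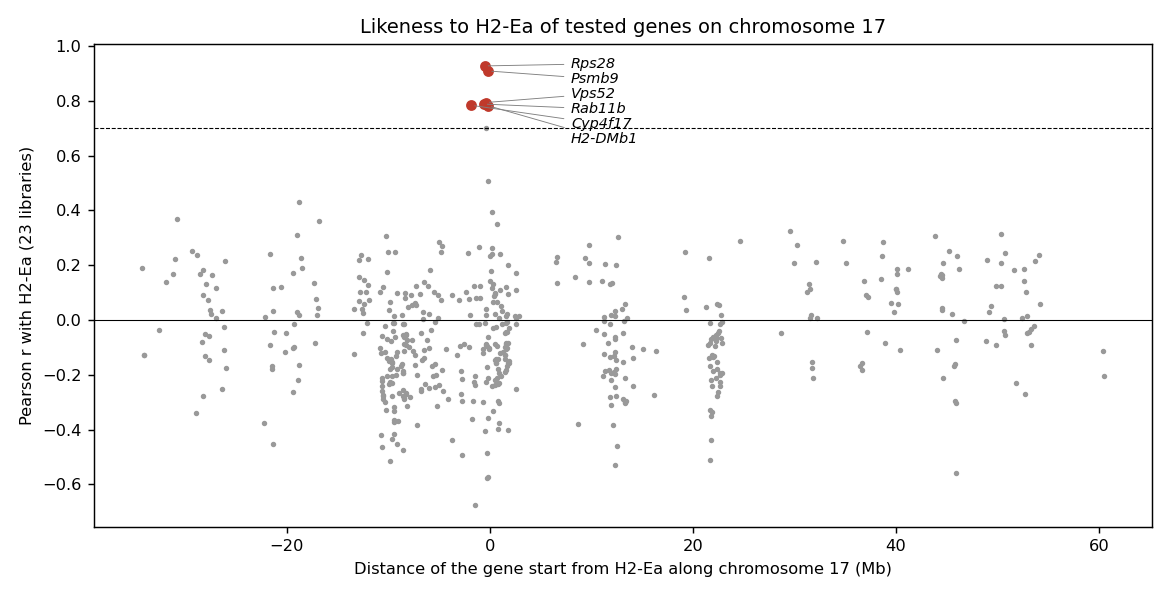
Pearson r of each tested gene with a name on chromosome 17 with H2-Ea over the 23 libraries (vertical axis) against its distance from H2-Ea in Mb (horizontal axis), with genes of r at least 0.7 in red. All red points lie within 2 Mb of H2-Ea, where most of the 115 genes still have an r near 0.

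Rps28 showed the pattern of H2-Ea at the widest range. In Sa of set 2 it was at 1.37, 399.56 and 370.10 FPKM, and in A100-FMT of set 2 at 4.50, 6.49 and 2.08. Vps52, a subunit of a tethering complex of the Golgi, was at 2.19, 4.26 and 4.30 FPKM in Sa of set 2 and at 1.23, 0.36 and 0.76 in A100-FMT. Rab11b, a small GTPase of recycling endosomes, was at 18.30, 33.13 and 32.26 FPKM in the former and at 15.08, 2.11 and 9.57 in the latter. In each of these genes replicate 1 of Sa was the lowest of its group, as it was for H2-Ea. Rps28 has near-identical copies elsewhere in the genome, so that its value is uncertain.

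The neighbours of the class II genes were not all variable. From H2-K1 to Btnl6 on chromosome 17 (33996012-34518776), 19 genes were tested, of which 5 belong to the class II genes described here. Beside these 5, 3 of the other 14 genes had a within-group SD past the 95th percentile of all genes, Psmb9 (0.80), Tap2 (0.41) and Psmb8 (0.38). Rps28, Rab11b and Vps52, described above, start before H2-K1, so the count leaves them out and holds for this window only. Psmb9 ranged from 12.3 to 84.9 FPKM. Btnl2, a butyrophilin-like gene next to H2-Ea, had an SD of 0.09 and stayed between 55.8 and 77.6 FPKM, and Btnl1 had an SD of 0.08. Tap1 (0.15), between H2-DMb1 and H2-Ab1, and Brd2 (0.14), beside H2-DMa, were near the median of all genes (0.125).

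Among the factors that act on class II promoters, some passed against Sa in set 1 and none in set 2. All 7 were expressed, with Nfyc, Nfyb and Nfya of the NF-Y complex at means of 36.3, 8.85 and 8.73 FPKM. In set 1 vs. Sa, 2 of 7 were higher and 0 lower in Con-FMT, 0 and 1 in A10-FMT and 1 and 0 in A100-FMT (limma), where 17.7%, 13.6% and 22.0% of all genes were higher and 9.17%, 18.4% and 13.1% lower. Creb1 rose by 0.62 ± 0.19 in Con-FMT and by 0.73 ± 0.19 in A100-FMT (SE, limma adjusted p = 0.032 and 0.013). Rfx5, the DNA-binding subunit of RFX, rose by 0.24 ± 0.09 in Con-FMT, and its partner Rfxap fell by 0.20 in A10-FMT. These calls held in 6 of 32 alternatives for Rfx5 and in 7 of 33 for Rfxap. In set 2, 0 of 7 passed in each comparison. Without replicate 3 of Sa in set 1, 0 of 7 passed in the 3 comparisons of set 1, and with the description's column the difference of Creb1 in Con-FMT was -0.03.

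Of the endosomal proteases and their companions, 9 of 10 were tested, led by Ctsb, Ifi30 and Ctsz with 338, 171 and 165 FPKM. Against Sa of set 1, 0 were higher and 2 lower in Con-FMT, 2 higher and 1 lower in A10-FMT, and 1 higher and 0 lower in A100-FMT (limma), while 26.9%, 32.0% and 35.2% of all genes passed in these comparisons. Ctss, the protease that makes the last cut of the invariant chain, rose by 0.47 ± 0.10 in A10-FMT and by 0.33 ± 0.10 in A100-FMT (SE, limma adjusted p = 0.0026 and 0.020). Ctsl, which does so in thymic epithelium, rose by 0.71 ± 0.12 in A10-FMT (SE, adjusted p = 0.00088), from 6.35 ± 0.962 FPKM (SD, n = 2) to 11.0 ± 0.675 (SD, n = 3). Averaged over both sets, Ctsl rose by 0.35 in Con-FMT (limma adjusted p = 0.047) and by 0.49 in A10-FMT (adjusted p = 0.028), and without replicate 3 of Sa in set 1 these differences were 0.29 (adjusted p = 0.28) and 0.43 (adjusted p = 0.22). The thiol reductase Ifi30 fell by 0.33 in Con-FMT and by 0.35 in A10-FMT, and Ctsd fell by 0.29 in Con-FMT. In set 2, 0 of 9 passed in each comparison with Sa, and without replicate 3 of Sa in set 1 the counts of set 1 were 0, 1 and 0, the 1 being Ctsl (0.58, adjusted p = 0.023).

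Of genes of class II turnover, Lamp1, Cd63 and Lamp2 led with 196, 143 and 91.6 FPKM, and 4 of 6 were tested. The same 3 genes passed against Sa of set 1 in all FMT groups (limma), 2 higher and 1 lower, beside 26.9% (Con-FMT), 32.0% (A10-FMT) and 35.2% (A100-FMT) of all genes. Lamp2, a lysosomal membrane protein, rose by 0.40 (Con-FMT), 0.58 (A10-FMT) and 0.43 (A100-FMT), and Marchf8, a ligase that ubiquitinates class II, by 0.22, 0.23 and 0.22. Cd63, a tetraspanin of class II compartments, fell by 0.36, 0.29 and 0.27. None passed in set 2 (0 of 4 in each comparison) or in set 1 without replicate 3 of Sa (0 of 4), and with GC content and length taken out the difference of Lamp2 was -0.03 in Con-FMT and -0.03 in A100-FMT. Marchf1, the ligase of B cells and dendritic cells, had 0.0065 FPKM and was not tested. Of 9 co-stimulatory molecules and receptors 1 was tested, Icosl with 2.07 FPKM, ahead of Cd274 (0.651 FPKM) and Lag3 (0.51 FPKM), and it passed in 0 of the 6 comparisons with Sa within a set.

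The interferon gamma axis that leads to Ciita was led by Irf1 and Ifngr2 with 117 and 82.1 FPKM, whereas Ifng itself had 0.030 FPKM and was at 0 in 10 libraries. Of 10 genes tested, 3 were higher and 0 lower in Con-FMT, 3 and 1 in A10-FMT and 3 and 0 in A100-FMT against Sa of set 1 (limma), near the 26.9%, 32.0% and 35.2% of all genes that passed. The median differences were 0.17, 0.15 and 0.19 against 0.05, -0.01 and 0.05 over all genes. The kinase Jak2 rose by 0.56, 0.75 and 0.70, Jak1 by 0.38 in Con-FMT and 0.28 in A100-FMT, and the inhibitor Socs1 by 0.55 in A10-FMT, where Usf1 fell by 0.33. In set 2, 0 of 10 passed in each comparison, as in set 1 without replicate 3 of Sa, where the difference of Jak2 in Con-FMT was -0.002. Irf1 did not pass in any of these.

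The same lists were followed in the comparisons between FMT groups and between sets. In A10-FMT vs. Con-FMT of set 1, where 16.7% of all genes passed, Ctsl rose by 0.44 and Rfx5 and Irf2 fell by 0.25 and 0.20 (limma). In A100-FMT vs. A10-FMT of set 1 (5.66% of all genes), Ctsl fell by 0.48. Between the sets, 9 genes of these lists passed in Sa, where 38.1% of all genes passed, with Creb1 (0.67), Jak2 (0.75), Lamp2 (0.47), Jak1 (0.36), Ctss (0.30) and Marchf8 (0.23) higher and Cd63 (-0.29), Ctsz (-0.28) and Usf1 (-0.24) lower in set 2. Without replicate 3 of Sa in set 1, 0 genes of these lists passed in Sa (0.0528% of all genes). In A10-FMT, where 30.4% of all genes passed, Rfx5 (0.27), Usf1 (0.25) and Irf2 (0.23) were higher and Ctsh (-0.96), Ctsl (-0.55), Rfxank (-0.53), Socs1 (-0.43), Ctss (-0.29) and Ctsb (-0.13) lower in set 2. The difference between FMT and Sa itself differed between the sets for Ctss (-0.59), Jak2 (-0.88), Lamp2 (-0.68), Rfxank (-0.60), Ctsl (-0.43), Usf1 (0.49), Ifi30 (0.38) and Irf2 (0.26) in A10-FMT, where 28.4% of all genes passed. In A100-FMT (26.8% of all genes) it did so for Jak2 (-0.90), Lamp2 (-0.61), Ctss (-0.41) and Marchf8 (-0.29), and in Con-FMT for 0 genes of these lists. Without replicate 3 of Sa in set 1, 0 genes of the 4 lists passed in A100-FMT (4.09% of all genes). In A10-FMT (20.4%) 0 of 7 promoter factors, 2 of 9 proteases and companions (lower) and 1 of 4 turnover genes (lower) passed then, and 2 genes of the interferon gamma axis were higher and 1 lower. The difference between A10-FMT and Con-FMT differed between the sets for Ctsl (-0.59), Ctss (-0.46), Ctsb (-0.23) and Irf2 (0.24), where 20.8% of all genes passed (limma).

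Most of the genes that interferon gamma induces beside class II were higher in the FMT groups than in Sa of set 1. Of 21 tested, 17 were higher in A10-FMT than in Sa, as were 14 in A100-FMT and 14 in Con-FMT, and 0 were lower (limma), where 13.6%, 22.0% and 17.7% of all genes were higher. In the order Con-FMT, A10-FMT, A100-FMT, kept below, the median differences were 0.75, 0.73 and 0.63. Zbp1, a sensor of nucleic acids, rose by 0.37, 0.71 and 0.40, and Irgm1, a GTPase, by 0.67, 0.60 and 0.52, whereas Psmb8, the most abundant of the list, differed by -0.52, -0.68 and -0.39 and did not pass. In set 2 the medians were 0.50, 0.29 and 0.20 and 0 of 21 passed. Without replicate 3 of Sa in set 1 the counts of set 1 were 0, 5 and 0, where 0.0%, 3.52% and 0.194% of all genes were higher. With the description's column they were 3, 14 and 8, where 0.37%, 10.6% and 5.75% were higher. Of the 7 class II genes tested, only Ciita passed in any of these 6 comparisons, in Con-FMT vs. Sa of set 1.

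Genes of epithelial defence that are often reported with epithelial class II were led by Reg3b, Reg3g and Ctss with 10097, 8804 and 84.7 FPKM. Of 10 tested, 0 passed in Con-FMT vs. Sa of set 1, 1 was higher and 1 lower in A10-FMT, and 3 were higher and 0 lower in A100-FMT (limma), where 26.9%, 32.0% and 35.2% of all genes passed, while 0 passed in set 2. In set 1, 0 of 10 passed in the 3 comparisons without replicate 3 of Sa. Reg3b and Reg3g, lectins that act on bacteria, passed in none of these comparisons.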

How the data were processed

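RNA of the small intestine of 23 mice was sequenced on an Illumina HiSeq 2500 after TRIzol extraction, and the authors deposited 1 table of FPKM values with 2 decimals on mm10, per the labels. The study's methods name RPKM and DEGseq. The aligner is not given in the sources used here. The table holds 19215 entries, 17842 with an NCBI Gene number, of which 17725 matched a symbol, in 24 columns. The depth is not known, so no interval or limit from counts is given, and a 0 is only listed as such.

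Groups were treatment by set. Each was fitted as a mean with limma 3.58.1 (R 4.3.3) on log2(FPKM + 1), with a trend in the prior variance, over entries with a mean of at least 1 FPKM (11337), and p-values were adjusted over all of them. Mice of an FMT group shared an inoculum, and p-values measure only the spread between these samples. Correlations used 100000 permutations (scipy 1.17.1). In simulated data for A100-FMT vs. Sa of set 2 on 11337 genes, 91.4% of changes of log2 1 and 99% of log2 2 in randomly chosen genes were recovered at an adjusted p of 0.05, and 4.77% of the calls were false. Recovery was not examined for genes as variable as the class II genes.

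The class II genes and the gene lists were chosen with earlier results of these data known. Genes were named by rule, which took the 8 genes, the 3 highest of each list, every gene of the class II pathway lists that passed in a comparison described, and the 10 most like the class II mean with and without group means. Some genes that this rule names are not reported here. Alternatives were a pseudocount of 0.1, quantile normalization, no filter or a filter at 5 FPKM, a GC and length correction (known for 92.9% of entries tested), groups alone, a replicate block, array quality weights, the description's column, members scaled before their mean, a ratio of 1.5 on FPKM + 1 without overlap, and each library left out.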

Additional observations from a re-analysis of the deposited data

Results flagged for a closer look

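Ciita stood out in 1 comparison. Its difference between A100-FMT and Sa was 0.33 in set 1 and -0.41 in set 2, and the test of the difference between the sets gave -0.74 ± 0.24 on the log2 scale (SE, limma adjusted p = 0.035). In set 1, 2 of 3 libraries of A100-FMT (6.35 and 4.33 FPKM) were above both Sa libraries (2.98 and 3.83 FPKM) and 1 lay between them (3.23 FPKM). In set 2 all 3 libraries of A100-FMT (3.84, 3.51 and 3.57 FPKM) were below all 3 of Sa (4.83, 5.74 and 4.97 FPKM). With 26.8% of all genes passing the same test, the call is 1 of 3033. With the description's column for replicate 3 of Sa in set 1 it was not made.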

How the results depend on the processing

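The count of class II genes past the threshold was 1 in Con-FMT vs. Sa of set 1 and 0 under no filter, a filter at 5 FPKM (which removes Ciita), quantile normalization, the GC and length correction, groups alone, weights, the description's column and a ratio of 1.5 on FPKM + 1 without overlap. Of all genes, 26.9% passed there, against 0.00882% with groups alone, 0.0% with weights and 0.397% with the description's column. In A100-FMT vs. Sa, the count of 0 became 1 in set 2 under weights, the description's column and the ratio, and 1 over both sets with the description's column. The share of all genes passing in set 2 went from 0.0353% to 12.8% (weights) and 4.94% (description's column). Over both sets it went from 0.891% to 0.591% with that column. In A100-FMT vs. Con-FMT the count became 1 in set 2 under weights and the ratio, and 1 over both sets under weights, and in A100-FMT vs. A10-FMT of set 2 it became 2 under the ratio. With weights, the share of all genes in A100-FMT vs. Con-FMT went from 0.0% to 4.82% in set 2 and from 0.123% to 1.61% over both sets. For the difference between sets, the count of 0 became 1 (Ciita) in A10-FMT vs. Con-FMT under groups alone, weights and the block, and 1 in A100-FMT vs. A10-FMT under weights. The share of all genes in the former went from 20.8% to 32.0%, 39.7% and 19.8% in that order. In the latter it went from 3.5% to 14.8%. For the difference between sets in A100-FMT vs. Sa the count fell from 1 to 0 under no filter, a filter at 5 FPKM, quantile normalization, groups alone, weights and the description's column. The share of all genes went from 26.8% to 0.265%, 0.0% and 18.6% under the last 3 of these. Between the sets in Sa the count fell from 2 to 1 with a pseudocount of 0.1 or quantile normalization, and to 0 under no filter, a filter at 5 FPKM, the GC and length correction, groups alone, the block, weights and the description's column. The share of all genes went from 38.1% to 0.00882%, 0.132%, 0.0% and 4.63% under the last 4 of these. The cause was not tested in these cases.

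Same-numbered libraries did not deviate together on average in either set (mean r 0.0048 over 15 pairs and -0.014 over 18). Single pairs ran from -0.16 to 0.18 in set 1 and from -0.35 to 0.32 in set 2, with 4 and 6 above 0.1. A mean over pairs cannot decide whether some of them share a batch, and the main fit has no replicate block. With a replicate block, Ciita passed in A100-FMT vs. Sa of set 1, where 35.9% of all genes passed. It also passed in A10-FMT vs. Con-FMT of set 1, where 15.5% passed (counts of 1 each, from 0). For the difference between sets in the latter comparison Ciita passed as well, beside 19.8% of all genes. Between the sets in Sa, 0 class II genes passed, beside 0.132% of all genes.

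Leaving out 1 library at a time moved the count between 0 and 1 in Con-FMT vs. Sa (set 1, both sets and the difference between sets), 0 and 4 in A10-FMT vs. Sa of set 1, 0 and 2 over both sets and 0 and 1 for the difference. In A100-FMT vs. Sa it ran from 0 to 2 in set 1, 0 to 1 in set 2, 0 to 1 over both sets and 0 to 2 for the difference, in A10-FMT vs. Con-FMT from 0 to 1 in set 1 and for the difference, and between the sets in Sa from 0 to 2. It was 0 throughout in Con-FMT and A10-FMT vs. Sa of set 2, A10-FMT vs. Con-FMT of set 2 and over both sets, A100-FMT vs. Con-FMT and vs. A10-FMT (differences between sets included), and between the sets in the FMT groups.

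Within set 2, r was 0.562 for Cd74 and Ciita, past no threshold, and 0.225 for H2-Aa and H2-Ea, with the sign turned. Without replicate 3 of Sa in set 1, signs turned for H2-DMa in A100-FMT vs. Sa of set 1 (0.16, lowest -1.62 without replicate 1 of Sa, and 0.14 with the description's column), Cd74 in A100-FMT vs. Sa over both sets (0.084, lowest -0.54) and Jak2 in Con-FMT vs. Sa of set 1 (-0.0020, highest 1.13). Creb1 in Con-FMT vs. Sa of set 1 was -0.032 with the description's column, and Lamp2 was -0.027 in Con-FMT and -0.035 in A100-FMT vs. Sa of set 1 under the GC and length correction. With no counts in the table, depth per library could not be weighed.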
